A study of Mus musculus with 2 samples.

Results

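MicroRNA genes are numbered in the order in which they were registered, so the mouse genes from Mir3000 to Mir5999 entered the catalogue late. Every gene row whose symbol is Mir with a number in that range was taken, without Mir3074-1, which left 121 of 1973 gene rows. RNA shorter than 30 bases was sequenced from limb of B6NCrl mice at embryonic day 12.5, with males and females mixed. Replicate 1 was a pool of 88 embryos with 4525636 counts on genes, replicate 2 a pool of 68 embryos with 3604284, and both belong to 1 group. There was no second condition, so the data describe which of these genes gave reads, where they lie and how far the 2 pools differ. Levels are CPM (a gene's own-strand counts divided by all gene counts, times 1000000), as mean ± SD over the 2 libraries (n = 2). Mature microRNAs are of nearly equal length, so levels were not divided by length. In a whole tissue, fewer cells of a type and less RNA per cell cannot be told apart. All 9 limb microRNA genes used to check the tissue label were detected, from Mir206, of skeletal muscle, at 2347 ± 213 CPM to Mir196b, of the HoxA cluster, at 86831 ± 9376 CPM.

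A microRNA is cut from a hairpin in a longer transcript, and 1 or both arms of the hairpin remain as mature RNAs of about the length sequenced here. The seed, the stretch near the 5′ end that pairs with target messenger RNAs, groups microRNAs into families. Many hairpins lie in introns or exons of a host gene and are cut from its transcript. In a mirtron the hairpin is an entire short intron, freed by splicing. Genes registered late were largely found by deep sequencing, and many of them are known from few reads.

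In the limb, 11 of the 121 genes were detected, meaning that both libraries reached 10 CPM. That is 9.09% of them, against 14.5% of all gene rows. Mature sequences of leading members are shown because targets and families are read from the seed. The last, miR-3475-5p, is of a lower member and is shown for its seed, described below. All are RefSeq sequences on GRCm38.p6, 5′ to 3′, with the seed (bases 2 to 8) in capitals.
miR-3071-5p: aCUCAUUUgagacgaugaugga
miR-3071-3p: aUCAUCAAaacaaauggagucc
miR-3102-5p: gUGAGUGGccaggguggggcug
miR-3102-5p.2-5p: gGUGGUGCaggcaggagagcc
miR-3102-3p.2-3p: cUCUACUCccugccccagcca
miR-3102-3p: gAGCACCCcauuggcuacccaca
miR-3099-5p: cCAGCUUCcuuccagcccuug
miR-3099-3p: uAGGCUAGagagagguugggga
miR-3072-5p: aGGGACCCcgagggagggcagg
miR-3072-3p: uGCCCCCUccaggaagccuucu
miR-3080-5p: uGAAGCGCcuguucuuggau
miR-3080-3p: uCCUCGGGcaaagcgcuugaca
miR-3475-5p: aAAUCAUGuacccccacagagg

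The RefSeq table matched 113 of the 121 genes by symbol and held a mature sequence for 112. Their 175 mature sequences carried 170 different seeds. Of the 175, 36 (20.6%) had a seed that also occurs in a mature sequence of another gene of the table, against 41.8% of the 754 mature sequences of genes numbered below 3000. Among the 21 mature sequences of detected members, 3 shared a seed with another gene. They were miR-3102-5p with miR-702-5p, miR-3058-3p with miR-7681-5p, and miR-3475-5p with miR-96-3p. The gene of miR-702-5p stood at 46.1 CPM and that of miR-7681-5p at 0.0 CPM. The hairpin of miR-96-3p, Mir96 of the sensory cluster, stood at 842 CPM. The arms were not separated in any of them. Uracil was the first base of 37.1% of the members' mature sequences and of 36.1% of those of genes numbered below 3000.

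The highest row cannot be given to 1 gene with certainty. It maps to Mir3071 by its gene identifier, and held 954 counts (211 CPM, 95% Clopper-Pearson interval 198 to 225) in replicate 1 and 656 counts (182 CPM, 168 to 196) in replicate 2. Its mean of 196 ± 20.4 CPM was 23.0% of all the members' counts. The deposited identifier carries gene version 1 and the annotation used here has version 2, the only such difference among the 121 genes. In the annotation used here Mir3071 lies on chromosome 12 (109595318 to 109595397, minus strand), in the coding sequence of the imprinted gene Rtl1, and Mir136 lies over the same bases on the plus strand (109595327 to 109595388) with no row of its own.

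The mature sequences of both genes are complementary, as in the hairpin of Mir3071 with its mature arms in capitals and the arms of Mir136 with their seeds in capitals.
Mir3071 hairpin: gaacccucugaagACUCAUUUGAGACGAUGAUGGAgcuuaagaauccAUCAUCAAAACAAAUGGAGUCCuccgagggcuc
miR-136-5p: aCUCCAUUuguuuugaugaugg
miR-136-3p: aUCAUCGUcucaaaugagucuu

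Along 19 bases miR-3071-5p is the exact complement of miR-136-3p, and along 20 bases miR-3071-3p is that of miR-136-5p. The row had 0 counts on the opposite strand in replicate 1 and 1 in replicate 2. So all but 1 of its reads lay on the strand of the earlier gene version. Which strand that version had is not given in the sources used here, and Mir3071 and Mir136 cannot be told apart in this row. Within 10 kb lay 10 other gene rows, all on the plus strand, of the maternally expressed microRNA cluster of the Dlk1-Dio3 region. Of these, 7 were detected, from Mir665 at 446 ± 31.5 CPM to Mir431 at 5391 ± 103 CPM. All 7 stood above the Mir3071 row. The main counts and shares below that include it are also given without it. Of the other members, 2 lie opposite another microRNA hairpin that has no row of its own. Mir3073a, in an intron of Aspg and opposite Mir3073b, had 2 and 3 counts, and Mir5615-2, opposite Mir5615-1, had none in either library.

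Without the Mir3071 row, 10 of 120 genes were detected. Mir5099 then led, with 742 counts (164 CPM) in replicate 1 and 544 (151 CPM) in replicate 2, or 157 ± 9.21 CPM. It lies on chromosome 12 (36816205 to 36816278, plus strand) with no gene of the annotation over it on either strand. Its RefSeq hairpin is printed without capitals because no mature part is marked in the table.
Mir5099 hairpin: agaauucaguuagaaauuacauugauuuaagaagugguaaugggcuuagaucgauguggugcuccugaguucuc

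No stretch of 20 bases of the Mir5099 hairpin occurred in another microRNA hairpin or in a transcript of another annotated gene. Mir3102 followed, with 533 counts (118 CPM) in replicate 1 and 471 (131 CPM) in replicate 2, or 124 ± 9.12 CPM. It lies on chromosome 7 (100882306 to 100882409, minus strand) in the protein-coding gene Arhgef17. Both ends of its hairpin fall within 5 bases of the ends of 1 intron, the layout of a mirtron. It overlaps an exon only of a transcript annotated as a retained intron. Its 4 mature sequences, shown above in their order from the 5′ end, form an outer and an inner pair. The counts cover the whole hairpin and do not separate them.

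The rows of Mir3071, Mir5099 and Mir3102 were the 3 members at 100 CPM or more in both libraries (2.48%, against 9.43% of all gene rows) and held 55.7% of the members' counts. Without the Mir3071 row, Mir5099 and Mir3102 held 42.4% of the counts of the other 120 members. Their order was the same in both libraries. Mir3102 and the next member, Mir3099, differed by more than either SD.

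**Figure D1:**
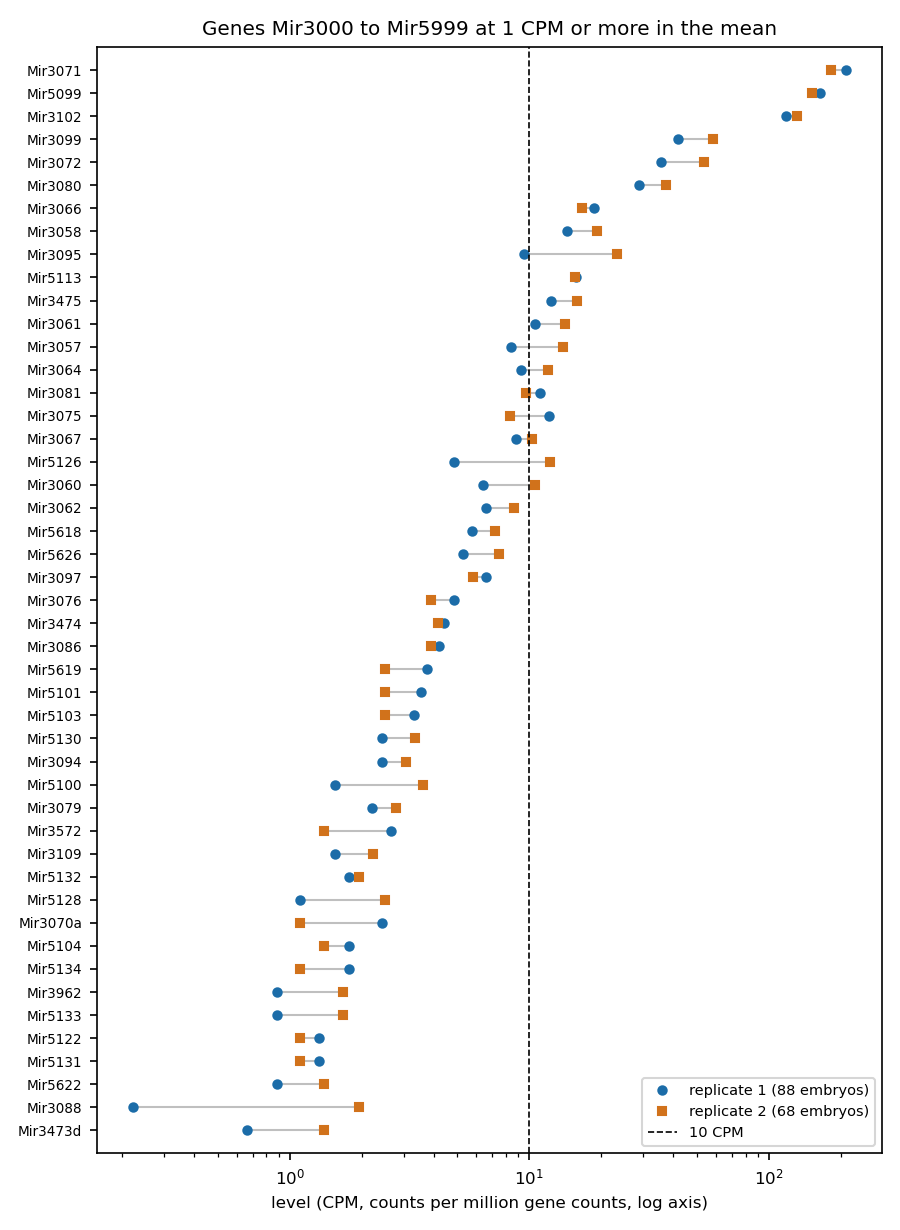
Level of each member at 1 CPM or more in the mean, in CPM on a log axis, with replicate 1 as circles, replicate 2 as squares and a grey line between them. The rows of Mir3071, Mir5099 and Mir3102 stand above 100 CPM in both libraries, and 11 members lie on the right of the dashed line at 10 CPM in both.

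Of the detected members, 4 lie in introns of protein-coding genes. Mir3099, in Usp29, an imprinted gene of a ubiquitin-specific peptidase family (chromosome 7, 6803587 to 6803670, plus strand), had 189 counts (41.8 CPM) and 210 (58.3 CPM), or 50.01 ± 11.7 CPM. Mir3080, in Tcf20, a transcriptional coregulator (chromosome 15, 82959218 to 82959296, minus strand), had 130 counts (28.7 CPM) and 134 (37.2 CPM), or 33.0 ± 5.98 CPM. Both were higher in replicate 2 in CPM. Mir3066, in Nol10, which encodes a nucleolar protein (chromosome 12, 17355392 to 17355474, plus strand), had 84 and 60 counts, or 17.6 ± 1.35 CPM. Mir3058, in Nudt4, a phosphohydrolase of inositol pyrophosphates (chromosome 10, 95559231 to 95559321, minus strand), had 65 and 69 counts, or 16.8 ± 3.38 CPM. These 2 genes changed order between the libraries, so their order was not resolved.

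An exon of an annotated transcript overlapped 5 of the detected members. Beside the Mir3071 row and Mir3102, these were Mir3072, Mir5113 and Mir3061. Mir3072 lies in an exon of Mirg, the long non-coding RNA of the distal Dlk1-Dio3 cluster (chromosome 12, 109747878 to 109747960, plus strand), and had 161 counts (35.6 CPM) and 194 (53.8 CPM), or 44.7 ± 12.9 CPM. Of the 8 other gene rows within 10 kb of it, 7 were detected, from 109 to 4024 CPM, all above Mir3072. Mir3072 therefore was the lowest detected gene of its neighbourhood.
Mir3072 hairpin, with its mature arms in capitals: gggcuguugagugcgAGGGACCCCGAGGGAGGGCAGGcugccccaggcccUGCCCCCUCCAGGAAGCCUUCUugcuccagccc

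Mir5113 overlaps the untranslated region of a transcript of Tnrc6b, a partner of Argonaute proteins in microRNA silencing (chromosome 15, 80940039 to 80940120, plus strand). It had 71 and 56 counts, or 15.6 ± 0.11 CPM. Mir3061 overlaps that of Ppp2ca, the catalytic subunit of protein phosphatase 2A (chromosome 11, 52126746 to 52126836, plus strand), with 48 and 51 counts, or 12.4 ± 2.51 CPM. Genes on the opposite strand overlap Mir3061, but its opposite strand had no counts. The other detected member with no host gene was the X-linked Mir3475 (140310948 to 140311012, plus strand), with 56 and 57 counts, or 14.1 ± 2.43 CPM. Within each library, the 95% intervals of Mir5113, Mir3475 and Mir3061 overlapped, so the order of these 3 was not resolved.

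A further 5 members reached 10 CPM in the mean but not in both libraries. Mir3095, in an intron of Lpar1, a receptor of lysophosphatidic acid, had 43 counts (9.50 CPM) in replicate 1 and 84 (23.3 CPM) in replicate 2. Mir3057 (11.1 ± 3.87 CPM) overlaps coding sequence of Apba3, and Mir3064 (10.6 ± 1.87 CPM) overlaps coding sequence of Ddx5, an RNA helicase that works with the nuclear microRNA-processing complex. Mir3081 (10.4 ± 0.95 CPM) lies in an intron of Boc, a co-receptor of Hedgehog proteins, and Mir3075 (10.2 ± 2.71 CPM) in an intron of Zmiz1. The member nearest below 10 CPM in the mean was Mir3067, in an intron of Smoc1, a secreted modulator of bone morphogenetic protein signalling, at 9.55 ± 1.01 CPM. For 13 members the 95% counting interval held 10 CPM in at least 1 library. They were the detected Mir3475 and Mir3061, the 6 genes just named, and Mir5126, Mir3060, Mir3062, Mir5618 and Mir5626. For Mir5126, Mir3060, Mir3062, Mir5618 and Mir5626 the interval in replicate 1 lay wholly below 10 CPM. Only for the others did depth leave the side of the threshold unresolved.

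Another 31 members stood from 1 to 10 CPM in the mean. After Mir3067 came Mir5126 (8.53 ± 5.19 CPM, 22 and 44 counts), Mir3060 (8.48 ± 2.92 CPM), Mir3062 (7.61 ± 1.39 CPM) and Mir5618 (6.48 ± 1.04 CPM). Mir5626, Mir3097, Mir3076, Mir3474, Mir3086, Mir5619 and Mir5101 followed, from 6.40 down to 3.02 CPM. Below them were Mir5103, Mir5130, Mir3094, Mir5100, Mir3079, Mir3572, Mir3109, Mir5132, Mir5128, Mir3070a, Mir5104, Mir5134, Mir3962, Mir5133, Mir5122, Mir5131, Mir5622, Mir3088 and Mir3473d, the lowest at 1.03 CPM. In total 42 members (34.7%) reached 1 CPM in both libraries, against 21.1% of all gene rows. The other 38 members with counts had 1 to 8 counts in the sum of the libraries.

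Low counts were more common among these genes than detection. At least 1 count fell on 85 of the 121 genes (70.2%), against 36.3% of all gene rows, and counts were present in both libraries for 74 (61.2%, against 29.8%). The other 11 had counts in 1 library, with at most 6. No count fell on 36 genes (29.8%, against 63.7%), and by the floor of 3 counts a count of 0 allows up to 0.663 CPM in replicate 1 and 0.832 in replicate 2. All gene rows include 932 with names outside these bands, mostly predicted genes, of which 877 had no count. But 12 of the 932 were detected, the highest at 21638 CPM, and the 932 together held 4.55% of gene counts.

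Beside other numbered genes the late group lay between the older and the newer ones in detection. Of 547 genes numbered below 3000, 253 (46.3%) were detected, and of 373 numbered 6000 or above, 10 (2.68%). The share with no count in either library was 28.7% in the older band and 49.9% in the newer band. The 121 genes thus had counts about as often as the older genes but rarely reached 10 CPM. Some hairpins share a stretch with another microRNA hairpin, as described below. They made up 33.6% of the older band, 14.9% of the late group and 5.09% of the newer band. Without them, 53.4%, 10.7% and 2.54% were detected, in the same order. Reads with several places in the genome were counted apart from the genes. Whether such copies changed the shares with counts was not tested across bands. The median level over all genes of a band was 0.637 CPM for the late group, 5.93 CPM for the older band and 0.11 CPM for the newer. Over the genes that passed 10 CPM, which fixes a lower end, the medians were 33.0, 379 and 20.9 CPM. No member reached 1000 CPM, which 90 of the older genes did. No test was made across bands, since genes are not replicates.

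**Figure D2:**
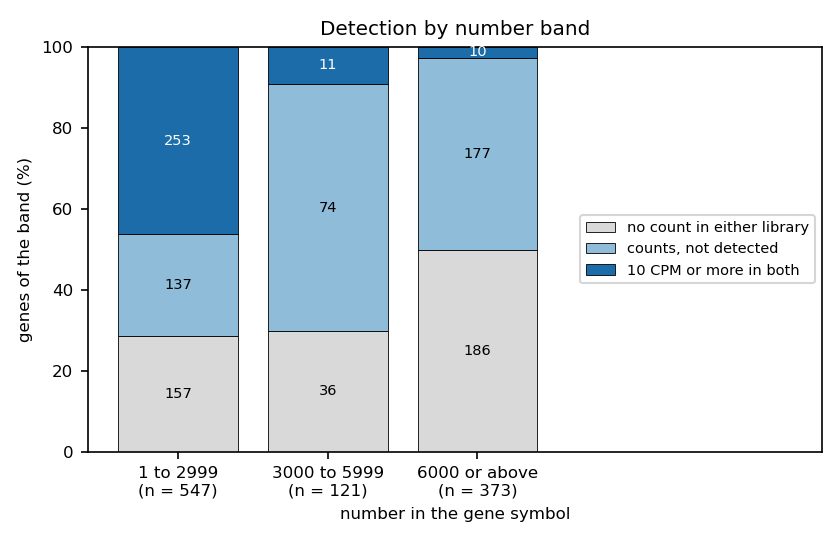
Percentage of genes with no count in either library, with counts below detection, and at 10 CPM or more in both libraries, for 3 bands of gene numbers, with the number of genes inside each bar. Detection falls from 253 of 547 to 11 of 121 and 10 of 373.

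All 121 genes together held 3785 counts, or 0.0836% of the gene counts (95% Clopper-Pearson interval 0.0810 to 0.0863), in replicate 1. In replicate 2 they held 3223 counts, or 0.0894% (0.0864 to 0.0926). The mean share was 0.0865% ± 0.0041, and without the Mir3071 row it was 0.0669%. The older band held 95.3% of the counts. The newer band, with more genes, held 0.0529% ± 0.0036, below the late group in both libraries. The detected members made up 79.0% of the members' counts, or 72.7% without the Mir3071 row in both sums.

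A host gene on the same strand was annotated for 88 of the 121 genes, 52 of them in an intron and 36 over an exon, and no host carried more than 1 member. Over an exon means that any part of the hairpin overlaps an exon of any transcript of the host. Such a hairpin can also lie in an intron of another transcript, as Mir3102 does. Without the Mir3071 row, 87 had a host. Of the 36 genes over an exon, 31 had counts (86.1%) and 5 were detected. Without the Mir3071 row, 30 of 35 had counts and 4 were detected. Of the 52 in an intron, 36 had counts (69.2%) and 4 were detected. Of the 33 with no host, 18 had counts (54.5%) and 2 were detected. The median level was 1.22 CPM over exons, 0.678 CPM in introns and 0.139 CPM with no host. Without the 22 genes whose sequence is repeated elsewhere, described below, the shares with counts were 87.9%, 78.0% and 64.0%, in the same order.

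Over exons, 17 members overlapped coding sequence, among them the Mir3071 row, and 12 overlapped untranslated regions. Any overlap counted, and its length was not measured. In the coding class Mir3062, Mir3064, Mir3076, Mir3082, Mir3103, Mir3104 and Mir5129 had 1 end within 5 bases of a splice site. So had Mir3077 in the untranslated class. All 12 in untranslated regions had counts, with 2 detected, and 15 of the 17 in coding sequence had counts, with the Mir3071 row alone detected. Without that row 14 of 16 had counts. Whether such reads were cut from a hairpin or were pieces of the host's messenger RNA was not tested. Long non-coding hosts carried 5 members, of which Mir3072 was detected, Mir5103 had 15 and 9 counts, and 3 had none. Among these 3 was Mir3078, in the host transcript of the neural gene Mir124a-1.

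Mir3547 had, like Mir3102, both hairpin ends within 5 bases of the splice sites of 1 intron, in Baiap3, but only 2 and 3 counts. A further 13 members had 1 end at a splice site. Of these, 10 had counts and none reached 10 CPM in both libraries, and Mir3064, Mir3062 and Mir3097 were the highest. Another microRNA gene lay within 10 kb on the same strand for 10 members. Of these, 6 had counts, led by the Mir3071 row and Mir3072, and 4 had none.

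**Figure D3:**
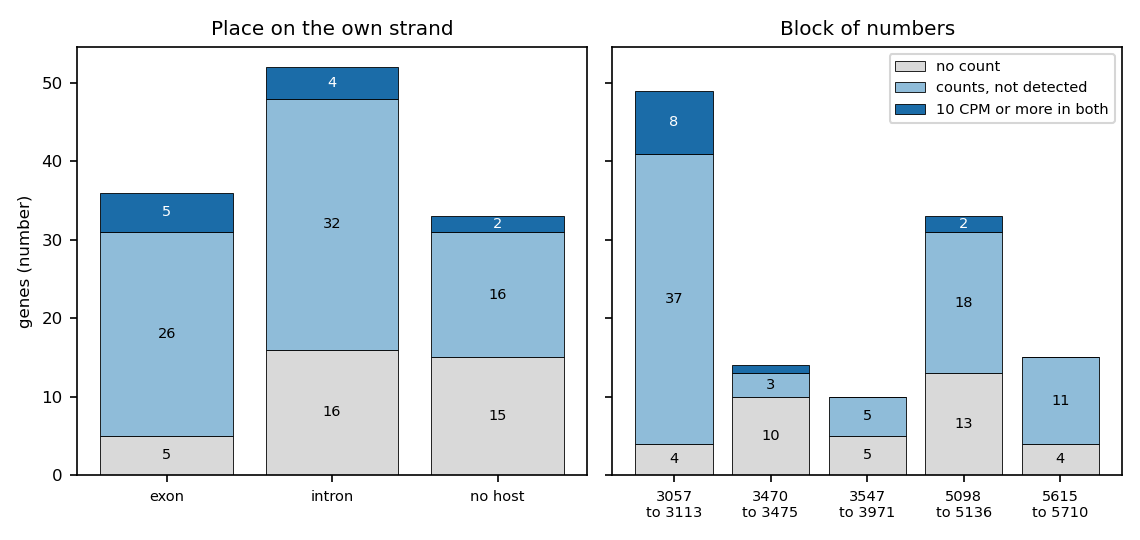
Number of members with no count, with counts below detection and at 10 CPM or more in both libraries, by place on the gene's own strand (left) and by block of gene numbers (right). Members over exons have the fewest genes without counts, 5 of 36, and the block from Mir3057 to Mir3113 holds 8 of the 11 detected members.

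The numbers run in 5 blocks, and these differed in how often reads were found. In the block from Mir3057 to Mir3113, 45 of 49 genes had counts (91.8%) and 8 were detected, or 7 without the Mir3071 row. In the block from Mir5098 to Mir5136, 20 of 33 had counts (60.6%), and Mir5099 and Mir5113 were detected. In the block from Mir5615 to Mir5710, 11 of 15 had counts and none reached 10 CPM in both libraries. In the block from Mir3547 to Mir3971, 5 of 10 had counts, and none was detected. In the block from Mir3470 to Mir3475, 4 of 14 had counts, and Mir3475 was detected. The median content of G and C ran from 47.9% in the block from Mir3470 to Mir3475 to 55.5% in that from Mir3547 to Mir3971.

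Widely repeated sequence went with a lack of counts, mainly in the block from Mir3470 to Mir3475. A few copies in transcripts did not go with such a lack. The hairpins of 18 members shared 20 bases or more with another microRNA hairpin elsewhere, and 16 had such a stretch in transcripts of 10 or more other annotated genes. Together these were 22 genes, of which 8 had counts (36.4%), at most 15 in the sum, and none was detected. Of the other 99 genes, 77 had counts (77.8%). Only annotated microRNA hairpins and transcripts were searched, not the whole genome, so copies elsewhere were not counted. By copies in transcripts alone, counts fell on 67 of 90 members with no other such gene (74.4%), on 14 of 15 with 1 to 9 (93.3%) and on 4 of 16 with 10 or more. Both Mir3470 genes, with a stretch in 1516 and 2382 other genes, had no counts, nor had both Mir3471 genes or Mir3472. Of the 7 Mir3473 genes 5 had none, and Mir3473d (3 and 5 counts) and Mir3473g (2 and 3) had few. Mir5098, in an intron of Rest, a repressor of neural genes, had a stretch in 2993 other genes and 1 count in each library.

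Reads with several places in the genome were counted apart from the genes, as 27.2% of reads in replicate 1 and 23.7% in replicate 2, and how many of them belong to these genes was not measured. A count of 0 covers reads with 1 place only and does not show a lack of expression. Whether reads with several places account for the low counts of the 22 genes was not tested. In the block from Mir3470 to Mir3475, 12 of 14 genes were among the 22. Of these 12, 2 had counts, and so had both others, Mir3474 and Mir3475. In the block from Mir3057 to Mir3113, 4 of 5 such repeated genes had counts, against 41 of the other 44. In the block from Mir5098 to Mir5136 it was 2 of 5, against 18 of the other 28. The nearly identical neighbours Mir3070a and Mir3070b in the Dlk1-Dio3 region had 11 and 4 counts and 0 and 0 counts.

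**Figure D4:**
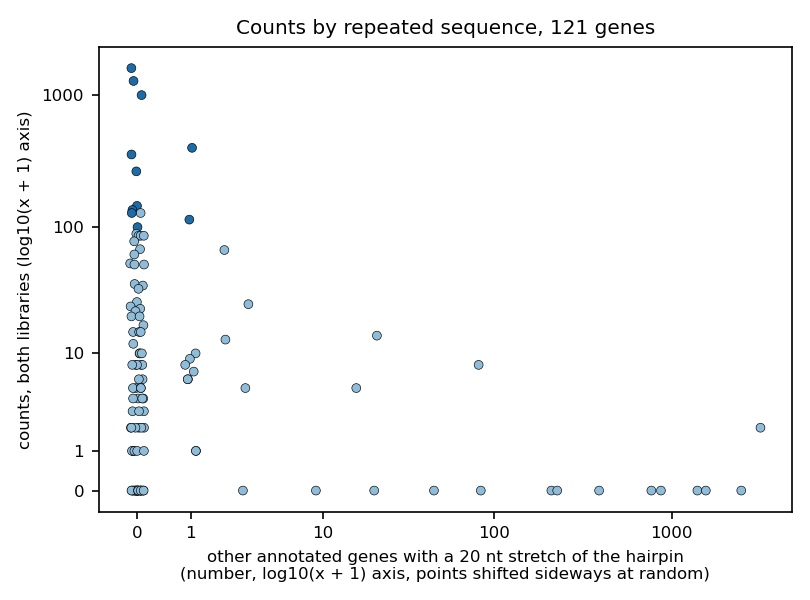
Counts of each of the 121 members, summed over both libraries, against the number of other annotated genes whose transcripts hold a stretch of 20 bases of the hairpin, both on log10(x + 1) axes, with points shifted sideways at random so that they can be told apart. Detected members, in dark blue, have 0 or 1 such gene, and most members with 10 or more lie at 0 counts.

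Other features of the hairpins were described without a test. Of the 36 members without counts, 12 shared a stretch with another microRNA hairpin and were not set apart here. The median hairpin was 83.0 bases long in detected members, 80.0 in those with counts below detection and 78.0 in those without counts. The G and C content was 53.8%, 53.8% and 52.8% in the same order. The predicted folding energy per base was -0.464 kcal/mol in the detected members, -0.452 in those with lower counts and -0.402 in those with no counts. The ranges overlapped, from -0.719 to -0.334 in the detected and from -0.773 to -0.273 in those with no counts.

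The 2 pools gave like levels for most members. Over the 44 members whose summed counts reached 10 (36.4%, against 22.1% of all gene rows), Spearman's rank correlation was 0.929 and Pearson's r of log2(CPM + 1) was 0.966, across genes that share both libraries. Of the 11 detected members, 10 lay within 1.5 times between the libraries, as did 90.2% of all 286 detected genes. The exception was Mir3072. Detection asks for 10 CPM in both libraries, which leaves out members that differ across that line, such as Mir3095 at 9.50 and 23.3 CPM. The median log2 ratio of replicate 2 over replicate 1 was 0.35 in the detected members (0.36 without the Mir3071 row) and -0.0012 in all detected genes.

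A two-sided exact binomial test sets the libraries against counting error alone and compares these libraries, not conditions. It called 5 of the 44 members (11.4%) at a Benjamini-Hochberg adjusted p under 0.05 over 436 genes, against 41.7% of all genes tested. Replicate 2 was higher in 4 (9.09%, against 20.4%) and replicate 1 in 1 (2.27%, against 21.3%). The highest member ranked 157 among all gene rows by mean level, and what this test can call depends on the counts. Mir3095, at 9.50 and 23.3 CPM, had a log2 ratio of 1.29 (SE 0.27, adjusted p = 3.85e-06), and Mir5126, at 4.86 and 12.2 CPM and with no host, one of 1.31 (SE 0.37, adjusted p = 0.000955). Mir3072, at 35.6 and 53.8 CPM, had 0.60 (SE 0.15, adjusted p = 0.000398), and Mir3099, at 41.8 and 58.3 CPM, 0.48 (SE 0.14, adjusted p = 0.00319). The Mir3071 row, at 211 and 182 CPM, was the member higher in replicate 1, at -0.21 (SE 0.073, adjusted p = 0.0107).

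The exact test of edgeR, an alternative with 1 library on each side, called 0 of the 44 members and 0 of all 436 genes, of which 25 had an unadjusted p under 0.05. Its biological coefficient of variation, 16.5%, was estimated from the same 2 libraries, so it sets their difference against itself and cannot show that members were alike. In it 2 members, Mir3095 and Mir5126, had an unadjusted p under 0.05, and the adjusted p of both was 0.344.

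**Figure D5:**
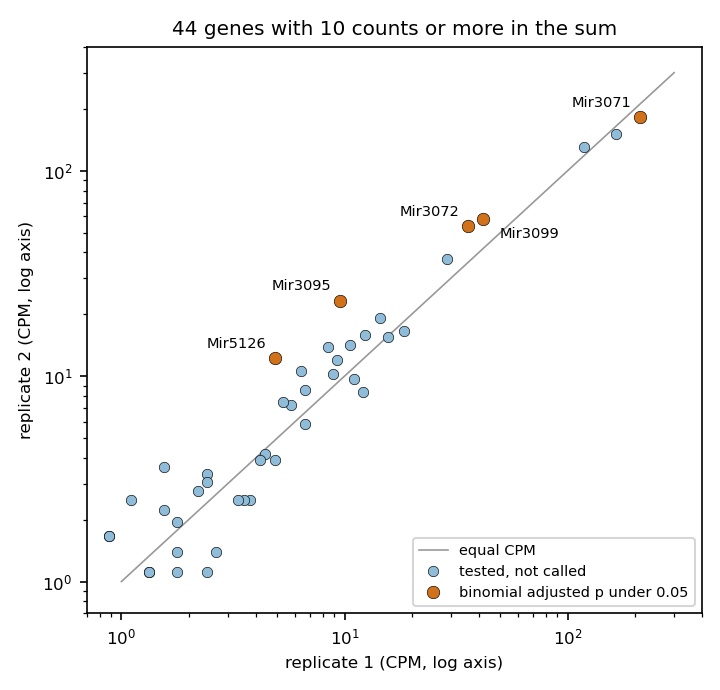
Level in replicate 2 against level in replicate 1, in CPM on log axes, for the 44 members whose summed counts reached 10, with a line at equal levels. The 5 members called by the exact binomial test are orange and named, and Mir3095 and Mir5126 lie farthest from the line among them.

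Mir3074-1 had 380 and 349 counts on its own strand and 599 and 593 on the opposite strand, where Mir24-1 lies. Its row also carried another gene version than the annotation. The 121 genes held only 9 opposite-strand counts in replicate 1 and 4 in replicate 2, spread over 7 genes.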

How the data were processed

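Limb tissue of embryonic day 12.5 was measured in 2 libraries. The authors deposited whole-number read counts per microRNA gene, placed on mm10 and counted over GENCODE M4, per the README deposited with each library. The sources used here do not give the aligner or the counting program. Rows that name no gene held 57.5% of reads in replicate 1 and 63.0% in replicate 2, as unmapped, mapping to several places or outside genes, and were left out. Identifiers were matched without version to GENCODE M21 (GRCm38): 1894 of 1973 rows matched.

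CPM used total own-strand gene counts. Place, splice sites and shared stretches came from M21, sequences from RefSeq (GRCm38.p6) and folding from ViennaRNA 2.7.2. Between libraries, a two-sided exact binomial test (scipy 1.17.1) with Benjamini-Hochberg adjustment covered genes whose summed counts reached 10. Its code was run on simulated Poisson counts, which hold counting error alone, so that run does not test spread between pools. edgeR 4.0.16 and DESeq2 1.42.0 (R 4.3.3) gave alternatives. Clopper-Pearson intervals and the floor of 3 counts describe counting error alone: PCR copies of 1 molecule count as separate reads. The labels number both libraries as biological replicates, but p-values measure only the spread or counting error of these pools.

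The members and lists were chosen with earlier results of these data known. Named were all members at 1 CPM or more in the mean, those opposite a microRNA hairpin, those nearest 10 CPM and those with the largest ratios. Members without counts are named as examples, chosen after their values were seen.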

Additional observations from a re-analysis of the deposited data

Results flagged for a closer look

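Mir3086, in an intron of Hspa12a, had 4 counts on the opposite strand in replicate 1, more than the 3 that a count of 0 allows, and 1 in replicate 2. The comparisons use the own strand, on which it had 19 and 14 counts.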

How the results depend on the processing

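The number of detected members was 42 at 1 CPM and 3 at 100 CPM in both libraries, 6 when scaled to all reads in the tables, and 17 without replicate 1 against 13 without replicate 2. It stayed at 11 with both strands counted, with TMM or DESeq2 library sizes and without members that share a stretch, and was 10 without the Mir3071 row and 16 at 10 CPM in the mean. The members' share was 0.0343% of all reads and 0.0669% of gene counts without the Mir3071 row. By the binomial test, 5 or 6 members differed between the libraries with other library sizes, filters or strands, and 4 without the Mir3071 row. The negative binomial test called 0, but its spread came from the same 2 libraries, so this 0 says nothing about stability. With a stretch of 25 nucleotides 11 members shared one with another microRNA gene. With both strands or TMM library sizes, 31 of 32 recomputed levels of 16 members moved by no more than 1 SD. The alternative without the Mir3071 row was chosen after seeing the data. Leaving out a library leaves no comparison between libraries. No paired analysis was possible because there is 1 group. Depth limits the statements below about 10 CPM, which is 45.3 counts in replicate 1 and 36.0 in replicate 2.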
